A study of Mus musculus with 12 samples.

Results

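The immediate early transcription factors described here are 10 genes: the FOS family members Fos, Fosb and Fosl2, the JUN family members Jun and Junb, the zinc finger genes Egr1, Egr2 and Egr3, and the immediate early response genes Ier2 and Ier3. They were chosen by symbol from the genes listed in both deposited count tables. All 10 were found among the 28008 genes that the tables share (32772 genes are in either table). Their RNA was measured by RNA sequencing in the gonadal fat pad (white adipose tissue) of mice of the C57BL/6N strain, with 3 libraries in each of 4 groups. Every mouse was put on its diet at 6 weeks of age and stayed on it for 18 weeks. The Chow group ate regular chow and the HFD group a high-fat diet, and the labels give no injection for either. The HFD Vehicle group ate the high-fat diet and received vehicle, 30% DMSO in corn oil, into the peritoneum once a day for 4 days. The HFD PCN group ate the same diet and received PCN (pregnenolone 16α-carbonitrile, a synthetic steroid and agonist of the rodent pregnane X receptor) by the same route at 50 mg/kg once a day for 4 days. How long after the last injection tissue was taken is not stated in the sources used here. The labels number the libraries without saying that different numbers are different animals, so the p-values below refer to the spread between libraries, part of which may be technical.

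Immediate early genes are transcribed within minutes of a growth factor, hormone, cytokine or stress signal, from factors already present in the cell, and their messages are mostly short-lived. FOS and JUN proteins pair through leucine zippers to form the AP-1 transcription factor, while EGR proteins bind GC-rich DNA through zinc fingers and are held in check by the NAB corepressors. The serum response factor, which binds the CArG box, and CREB, which binds the cAMP response element, drive many of these genes once MAP kinases or cAMP signalling are active. In fat, Egr2 is known both as an early gene of adipocyte differentiation and as a gene of macrophages. Ier2 and Ier3 share the rapid induction, but neither belongs to the leucine zipper or zinc finger families, and IER3 is known mainly as a regulator of cell survival and of ERK signalling rather than as a factor that binds DNA.

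Elements through which such genes are classically switched on were searched only within 250 bases before the transcription start. The upstream sequences of the 4 members whose RNA differed between diets are shown. They come from RefSeq on GRCm38.p6, where 7 of the 10 members had an entry, and each runs 5′ to 3′ on the gene's own strand, ending at or just before a RefSeq transcription start. The stretches are chr12:85473640-85473889 on the plus strand for Fos, chr8:84978749-84978998 on the minus strand for Junb, chr10:67537619-67537868 on the plus strand for Egr2 and chr17:35821463-35821683 on the plus strand for Ier3. Egr2 has 5 RefSeq starts, and the third is shown, chosen after its matches were seen. Capitals mark every match to a searched motif.
Fos: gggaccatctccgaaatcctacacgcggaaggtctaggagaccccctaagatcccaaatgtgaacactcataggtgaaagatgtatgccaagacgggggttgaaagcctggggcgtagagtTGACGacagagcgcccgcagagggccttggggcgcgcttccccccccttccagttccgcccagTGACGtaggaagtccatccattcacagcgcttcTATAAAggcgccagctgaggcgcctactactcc
Junb: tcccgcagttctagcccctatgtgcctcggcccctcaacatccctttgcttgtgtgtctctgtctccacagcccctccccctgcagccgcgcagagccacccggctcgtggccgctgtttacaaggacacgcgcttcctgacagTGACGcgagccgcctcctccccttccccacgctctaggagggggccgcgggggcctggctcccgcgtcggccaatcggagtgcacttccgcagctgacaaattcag
Egr2: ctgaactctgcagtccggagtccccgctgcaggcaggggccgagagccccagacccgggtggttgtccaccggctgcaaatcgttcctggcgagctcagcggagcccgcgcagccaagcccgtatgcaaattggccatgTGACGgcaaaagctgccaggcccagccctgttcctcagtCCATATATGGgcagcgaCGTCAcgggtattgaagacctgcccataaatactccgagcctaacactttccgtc
Ier3: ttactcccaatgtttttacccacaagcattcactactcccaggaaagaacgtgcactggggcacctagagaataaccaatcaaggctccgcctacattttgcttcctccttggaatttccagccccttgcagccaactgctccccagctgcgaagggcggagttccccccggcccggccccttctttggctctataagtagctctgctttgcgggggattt
Motifs of 6 kinds were searched in the 250 bases before each start: the CArG box, the full cAMP response element TGACGTCA, its core TGACG on either strand, the AP-1 site TGANTCA, the EGR site GCGNGGGCG on either strand, and TATAAA on the given strand only. A full cAMP response element also contains the core on both strands, so those searches overlap. Fos had TGACG at -129 to -125 and at -66 to -62 from the start, and TATAAA at -33 to -28. Junb had 1 TGACG, at -106 to -102. The Egr2 window had a CArG box at -72 to -63, with TGACG on the given strand at -111 to -107 and on the other strand, read as CGTCA, at -55 to -51. The window of the first Egr2 start, whose last 24 bases lie inside the annotated gene, had no match. That of the second start had a CArG box but no TGACG, and those of the fourth and the fifth overlap the one shown. The Ier3 stretch had no match to these letters. Of all 32851 RefSeq windows of this length, 1.467% held a CArG box, 17.77% TGACG, 1.546% the full cAMP response element, 6.749% the AP-1 site, 4.697% the EGR site and 7.592% TATAAA. A match is a description of the letters only. Bases farther upstream were not searched, so a window with no match does not show that the gene lacks the element.

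Depth ranged from 11090117 to 27408092 counts per library. The sample labels give the source as duodenum, while the title of the series names gonadal fat. The 7 adipocyte markers summed to 9469 to 24068 CPM (counts scaled to the library's total count) over the 12 libraries. The intestinal epithelial markers in both tables summed to 9.52 to 40.8 CPM, most of it from Lgals4 (9.08 to 37.1 CPM). The intestinal factor Cdx1 was at 0 in the Chow and Vehicle libraries and at 0.060 CPM or less in the others. Some libraries stood apart from their groups. The library HFD Vehicle 50 had 750 CPM of the 8 summed macrophage markers (Adgre1, Cd68, Csf1r, Mrc1, Itgam, Cd14, Lyz2 and Trem2), while Vehicle 23 and Vehicle 55 had 5476 and 5909 CPM. HFD PCN 11 had 2593 CPM, where PCN 5 and PCN 27 had 5946 and 5784 CPM. Mitochondrial ribosomal RNA took 28.7% of the counts of Chow 19, 6.05% and 9.66% in the other Chow libraries, 7.49% in HFD Vehicle 50, and 1.40% to 2.54% in the remaining 8 libraries. Values without HFD Vehicle 50 or Chow 19 are given beside the main results they touch.

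The diet comparison asked how the genes differed between fat of HFD and Chow mice. On the high-fat diet 3 members were higher (Egr2, Fos and Junb), 1 was lower (Ier3), and 6 did not pass the test. Egr2 showed the largest difference, 12.8-fold, followed by Fos at 5.30-fold and Junb at 3.62-fold, while Ier3 was 3.51-fold lower. Of the 16216 genes tested, 59.8% passed edgeR's quasi-likelihood test at an adjusted p of 0.05, 29.8% higher and 30% lower, so that 4 of 10 members is not more than the background. The same 4 members had libraries that did not overlap between the groups, as did 68.5% of all genes. The median log2 fold change of the 10 members was -0.22, against -0.03 over all genes tested. Levels below are CPM of each library's total, while fold changes and tests use edgeR's TMM scaling. With diet that scaling shifted Chow 19 most, with a factor of 0.772 against 1.086 to 1.103 in the HFD libraries. Levels and fold changes can therefore differ. For Ier2 the mean CPM was 7.97 in Chow and 8.88 in HFD, but the log2 fold change was -0.13.

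**Figure D1:**
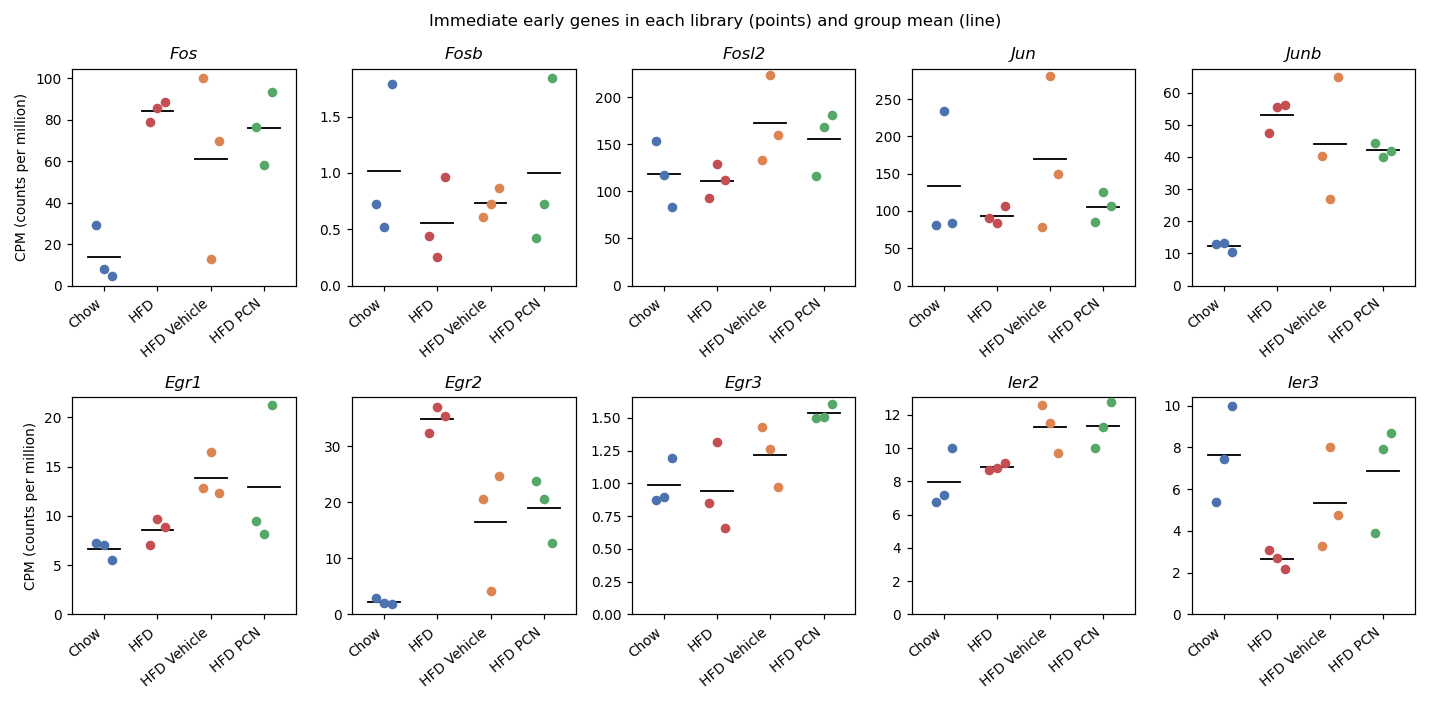
CPM of each of the 10 members (1 panel a gene) in the 12 libraries, grouped as Chow, HFD, HFD Vehicle and HFD PCN along the x axis; points are libraries and bars mark group means. Egr2, Fos and Junb lie higher in all 3 HFD libraries than in all 3 Chow libraries and Ier3 lies lower.

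Egr2 encodes a zinc finger factor, also called KROX20, and lies on chromosome 10 from 67535475 to 67542188 (plus strand, GRCm38). Its level was 2.91, 2.09 and 1.88 CPM in Chow libraries 8, 17 and 19, and 32.4, 37.0 and 35.5 CPM in HFD libraries 4, 30 and 38. Every HFD library was far above every Chow library, and both groups were tight. The group means were 2.29 ± 0.543 CPM (SD, n = 3) in Chow and 35.0 ± 2.34 CPM (SD, n = 3) in HFD. The log2 fold change was 3.68 (SE 0.15, edgeR adjusted p = 4.57e-06), the 16th smallest p of all genes tested.

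Junb, the JUN family member that is a weaker activator than Jun and can oppose it, lies on chromosome 8 from 84974484 to 84978718 on the minus strand. It was at 13.01, 13.3 and 10.5 CPM in the Chow libraries and at 47.3, 55.4 and 56.3 CPM in the HFD libraries. The groups were far apart, and the log2 fold change, 1.85 (SE 0.11; edgeR adjusted p = 1.22e-05), was the most precisely estimated of the 10 members. A neighbour on the other strand, Prdx2, covers 7.52% of the exon bases of Junb, and the strand setting of the counting is not known here.

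Fos, the founding member of its family, lies on chromosome 12 from 85473890 to 85477273 on the plus strand. It was at 29.4 CPM in Chow 8, 7.91 CPM in Chow 17 and 4.53 CPM in Chow 19, and at 79.0, 85.4 and 88.7 CPM in the HFD libraries. The HFD libraries were close together, while the Chow libraries differed several-fold among themselves without reaching the HFD range. The log2 fold change was 2.40 (SE 0.49, edgeR adjusted p = 0.00325). Without Chow 8, the highest Chow library, it was 3.44, without Chow 17 it was 2.12 and without Chow 19 it was 2.07.

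Ier3, on chromosome 17 from 35821684 to 35822923 (plus strand), went the other way. It was at 5.38, 7.46 and 9.998 CPM in the Chow libraries and at 3.06, 2.70 and 2.16 CPM in the HFD libraries. Every HFD library was below every Chow library. The log2 fold change was -1.81 (SE 0.34, edgeR adjusted p = 0.00209). Chow 19, with its high share of mitochondrial ribosomal RNA, held the highest Ier3 level, and without that library the log2 fold change was -1.39.

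**Figure D2:**
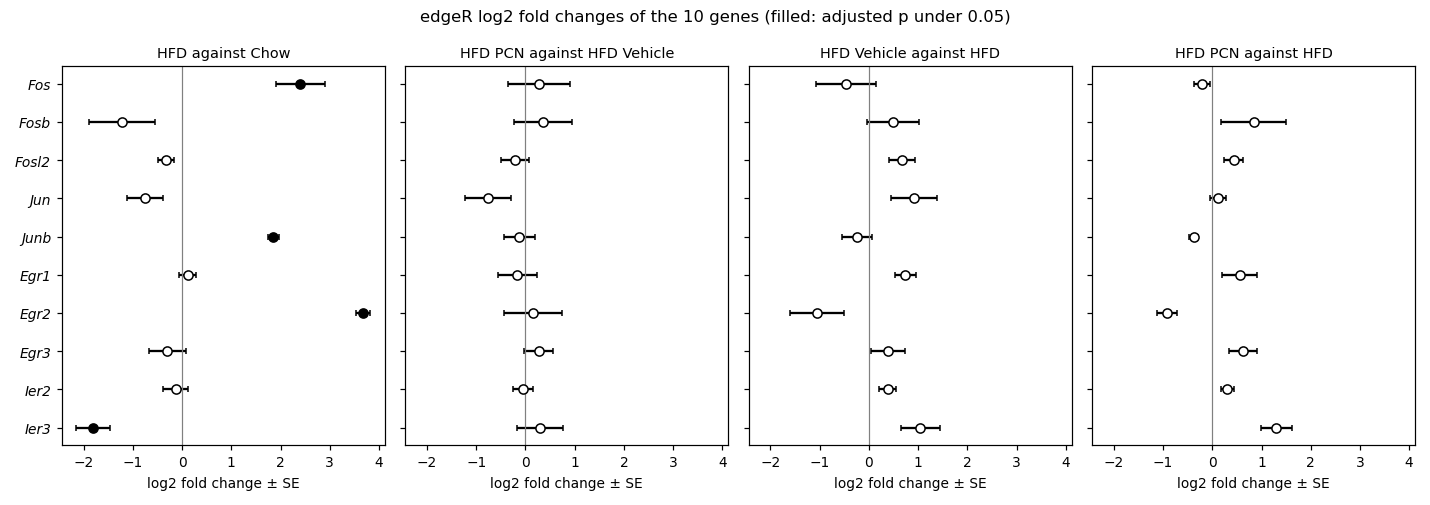
Log2 fold change of each member in the 4 comparisons (1 panel a comparison), with bars of 1 standard error from edgeR; filled points have an adjusted p under 0.05. Filled points appear only with diet, for Egr2 (3.68), Fos (2.40), Junb (1.85) and Ier3 (-1.81).

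The other 6 members did not pass with diet. Jun, the main partner of FOS proteins, lies on chromosome 4 from 95049034 to 95052222 on the minus strand. A neighbour on the other strand, Junos, covers 7.28% of its exon bases, and the strand setting is not known here. Jun was at 81.0, 234 and 83.9 CPM in the Chow libraries and 90.7, 83.4 and 106 CPM in the HFD libraries. Only Chow 17 stood above the HFD range, and the log2 fold change was -0.76 (SE 0.37, edgeR adjusted p = 0.108). Without Chow 8 it was -1.03 and passed (edgeR adjusted p = 0.0132), whereas without Chow 17 it was -0.13. Fosl2, which encodes FRA2, a longer-lived FOS relative, was at 154, 117 and 83.9 CPM in Chow and 93.2, 130 and 112 CPM in HFD, with overlapping libraries. Its log2 fold change was -0.32 (SE 0.16, edgeR adjusted p = 0.114).

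The best-known member of the EGR family did not follow Egr2. Egr1 was at 7.20, 7.01 and 5.55 CPM in Chow and 7.05, 9.67 and 8.83 CPM in HFD. The libraries overlapped, and the log2 fold change was 0.11 (SE 0.17, edgeR adjusted p = 0.579). Ier2, which encodes a nuclear protein, was at 6.76, 7.16 and 9.998 CPM in Chow and 8.71, 8.79 and 9.13 CPM in HFD. The HFD libraries lay inside the Chow range, and the log2 fold change was -0.13 (SE 0.25, edgeR adjusted p = 0.665). Without Chow 19 it was 0.22.

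Fosb and Egr3 were near the detection limit, with 7 to 31 and 11 to 39 reads per library. Fosb was at 0.727, 0.522 and 1.79 CPM in Chow and 0.443, 0.255 and 0.961 CPM in HFD, with a log2 difference of -1.23 (SE 0.67; edgeR adjusted p = 0.144). Egr3 was at 0.872, 0.895 and 1.196 CPM in Chow and 0.849, 1.31 and 0.661 CPM in HFD, with a log2 difference of -0.30 (SE 0.38; edgeR adjusted p = 0.525). For both genes the groups overlapped. Without Chow 19 the difference was -0.40 for Fosb and -0.0041 for Egr3. All 10 members passed edgeR's default expression filter in every comparison.

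Markers of other cells moved with the same contrast. All 8 macrophage markers rose with diet, with a median log2 fold change of 3.21, and their sum was 1178, 629 and 314 CPM in Chow libraries 8, 17 and 19 against 6563 to 7191 CPM in the HFD libraries. Of the 5 mast cell markers 4 also rose, 4 of the 5 fibroblast and progenitor markers rose (548 to 1234 CPM summed in Chow and 2188 to 2630 CPM in HFD), 6 of the 7 adipocyte markers fell, and all 5 endothelial markers fell. In plain CPM the order of the Chow libraries in the macrophage sum was also their order for Egr2 and Fos. For Egr2 it rested on 40, 28 and 22 reads in Chow 8, 17 and 19. After TMM scaling (factors 1.029, 0.957 and 0.772) Chow 19 was above Chow 17 for Egr2, so its order was not kept. The plain CPM order was not particular to macrophages. The adipocyte, endothelial, and fibroblast and progenitor sums had the same order, and the mast cell sum did not. HFD Vehicle 50, with its low macrophage sum, had 4.15 CPM of Egr2 and 12.8 CPM of Fos, next to the Chow libraries. Its endothelial sum was also apart, at 942 CPM, with 380 CPM in Vehicle 23 and 376 CPM in Vehicle 55. In the PCN group, library 11 had the lowest macrophage sum (2593 CPM) and the lowest Fos (58.1 CPM). Its Egr2 was 20.7 CPM, while PCN 27, with a macrophage sum of 5784 CPM, had 12.8 CPM. The part of cell composition in these differences was not tested, and in bulk tissue more cells of a type and more RNA per cell cannot be told apart.

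**Figure D3:**
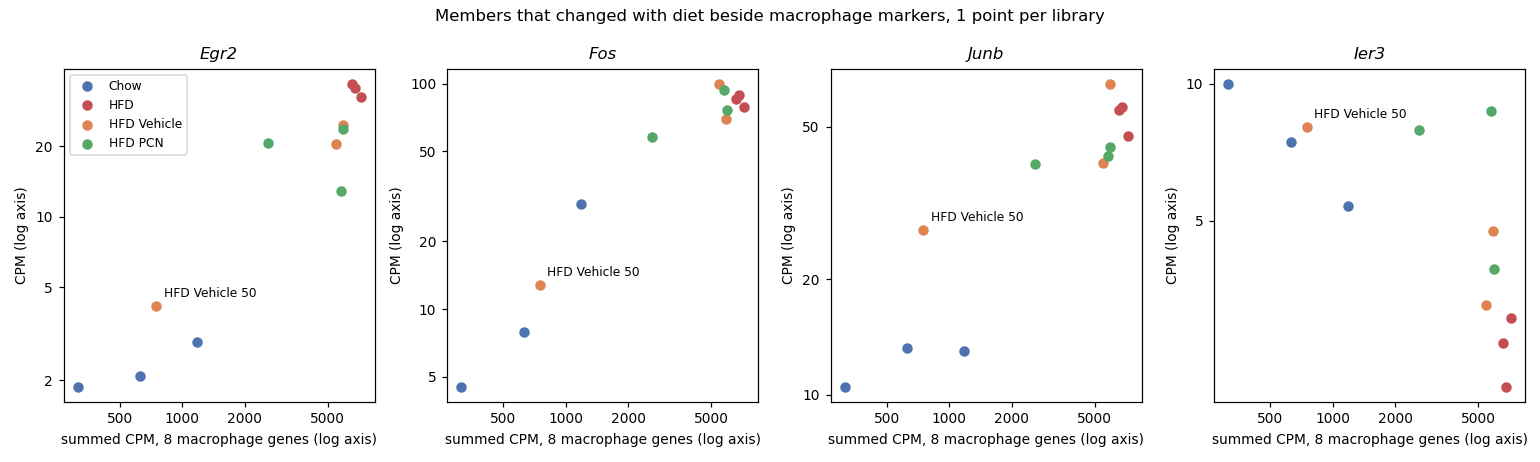
CPM of Egr2, Fos, Junb and Ier3 (y axes, log scale) against the summed CPM of 8 macrophage markers (x axes, log scale), 1 point per library, coloured by group. HFD Vehicle 50, at 750 CPM of markers, lies with the Chow libraries for Egr2 (4.15 CPM) and Fos (12.8 CPM) and between the groups for Junb (27.0 CPM).

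Per kilobase of exon, the order of the members changed with diet. In Chow, Jun led at 41.7 ± 27.5 CPM per kb (SD, n = 3), Fosl2 followed at 12.2 ± 3.62, and Ier3 (6.73 ± 2.05), Fos (5.92 ± 5.73), Junb (5.33 ± 0.664) and Ier2 (5.24 ± 1.16) formed a cluster that did not differ beyond their spread. Egr1 (1.47 ± 0.201), Egr2 (0.675 ± 0.160), Egr3 (0.224 ± 0.0410) and Fosb (0.163 ± 0.109) came last. In HFD, Fos led at 35.9 ± 2.11 CPM per kb, above Jun at 29.3 ± 3.65 and Junb at 23.0 ± 2.15. Fosl2 (11.5 ± 1.88) and Egr2 (10.3 ± 0.689) came next and overlapped within their spread, followed by Ier2 (5.83 ± 0.146), Ier3 (2.34 ± 0.401) and Egr1 (1.90 ± 0.298), the last pair again overlapping. Egr2 thus stood below Egr1 in Chow and above it in HFD.

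In the injected groups Jun had the highest mean, at 53.2 ± 32.2 CPM per kb with vehicle and 33.0 ± 6.24 with PCN. Fos (25.8 ± 18.8 and 32.3 ± 7.46), Junb (19.1 ± 8.34 and 18.3 ± 0.960) and Fosl2 (17.8 ± 4.77 and 16.1 ± 3.51) followed in both groups. In the Vehicle group the SD ranges of these 4 genes overlapped. Within each library, however, Jun was above Junb and Fosl2. In libraries 23, 50 and 55 Jun was at 24.6, 88.0 and 47.1 CPM per kb. Junb was at 17.5, 11.7 and 28.2 and Fosl2 at 13.8, 23.1 and 16.5, so their order to each other changed. Fos, at 42.5, 5.44 and 29.6, was above Jun in library 23 only, and its place is not resolved. With PCN, Jun and Fos did not differ beyond their spread, and Fos was above Jun in libraries 5 (32.4 against 26.7 CPM per kb) and 27 (39.6 against 33.2). Egr3 and Fosb were the lowest members in all 4 groups.

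Ratios within a library need no scaling between libraries. Egr2 to Egr1, Junb to Jun and Fos to Fosl2 each set a member called higher with diet over a relative that was not called. A higher ratio in HFD therefore follows from the choice of pairs and is no separate evidence. Egr2 to Egr1 per kilobase was 0.533, 0.393 and 0.447 in the Chow libraries and 6.07, 5.05 and 5.31 in the HFD libraries. In the Vehicle libraries 23, 50 and 55 it was 2.12, 0.332 and 2.64, and in the PCN libraries 5, 11 and 27 it was 3.30, 3.32 and 0.797. The HFD libraries were thus the highest of all, and HFD Vehicle 50 was the lowest of the 12. Junb to Jun was 0.223, 0.0785 and 0.174 in Chow and 0.723, 0.921 and 0.735 in HFD, with HFD Vehicle 50 at 0.133 and the other injected libraries between 0.444 and 0.723. Fos to Fosl2 was 0.785, 0.277 and 0.222 in Chow and 3.49, 2.71 and 3.27 in HFD, with HFD Vehicle 50 at 0.236 and the other injected libraries between 1.42 and 3.07. Pairs in which both members were called higher went otherwise. Junb to Egr2 was 6.61, 9.39 and 8.26 in Chow and lower, at 2.16, 2.21 and 2.34, in HFD. Fos to Egr2 was 14.6, 5.47 and 3.48 in Chow and 3.52, 3.34 and 3.61 in HFD, with overlap.

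**Figure D4:**
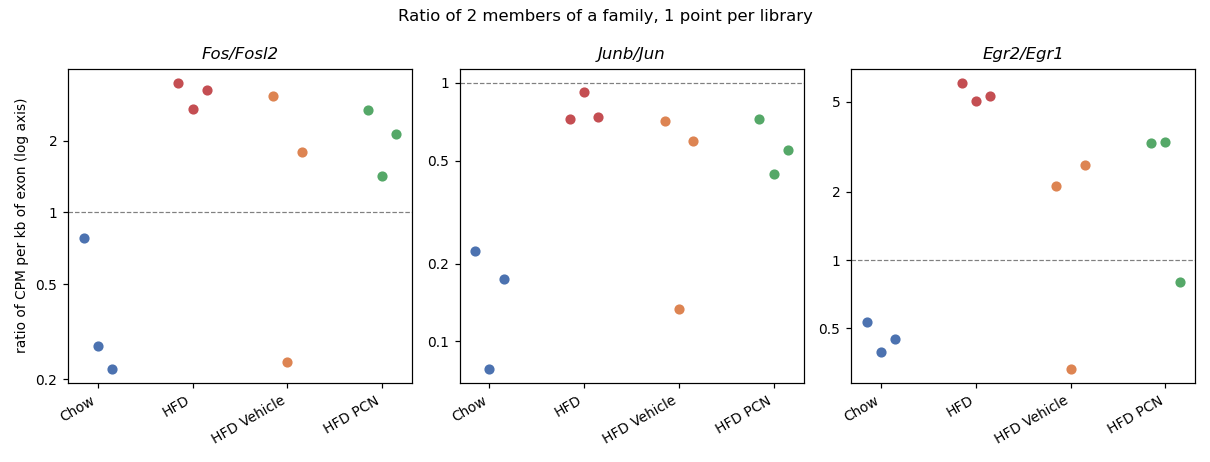
Ratios of CPM per kilobase within each library (y axes, log scale) for Fos to Fosl2, Junb to Jun and Egr2 to Egr1, by group; the dashed line marks a ratio of 1. Each pair sets a member called higher with diet over a relative that was not called. The 3 HFD libraries lie above the 3 Chow libraries in every panel, and HFD Vehicle 50 (0.236, 0.133 and 0.332) lies in or below the Chow range.

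The comparison of HFD PCN with HFD Vehicle asked what PCN changed in obese mice. No member changed by edgeR's test, and no gene did: 0% of 16563 genes passed, 281 genes (1.7%) had an unadjusted p under 0.05, DESeq2 called 1 gene (0.00328%) and limma-voom 0. None of the 10 members had an unadjusted p under 0.05, and DESeq2 and limma-voom called 0 of them. The edgeR adjusted p was 0.99986 for each. The log2 fold changes of the members ran from -0.77 (Jun) to 0.36 (Fosb), with a median of 0.05 against 0.00 over all genes.

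Within this comparison Jun differed most in size among the members. It was at 78.3, 281 and 150.2 CPM in Vehicle libraries 23, 50 and 55, and at 85.2, 125 and 106 CPM in PCN libraries 5, 11 and 27. The PCN libraries lay inside the Vehicle range, and the log2 fold change was -0.77 (SE 0.47). Without HFD Vehicle 50 it was -0.17. Fos was at 99.9, 12.8 and 69.7 CPM with vehicle and 76.3, 58.1 and 93.2 CPM with PCN. HFD Vehicle 50 was far below the other 5 libraries, which overlapped, and the log2 fold change of 0.27 (SE 0.63) became -0.20 without that library.

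Egr2 was at 20.5, 4.15 and 24.7 CPM with vehicle and 23.8, 20.7 and 12.8 CPM with PCN. One library of each group was low, and the log2 fold change of 0.16 (SE 0.59) became -0.29 without HFD Vehicle 50. Junb was at 40.3, 27.0 and 64.8 CPM with vehicle and 44.4, 40.04 and 41.9 CPM with PCN, so that the PCN libraries lay within the wide Vehicle range (log2 fold change -0.12, SE 0.31; -0.37 without HFD Vehicle 50). Egr3 was the 1 member whose libraries did not overlap, at 1.43, 1.26 and 0.970 CPM with vehicle and 1.499, 1.51 and 1.61 CPM with PCN. Of all genes 3.43% were higher without overlap in the same way, and Egr3's log2 fold change was 0.27 (SE 0.29).

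The remaining members overlapped between the injected groups. Fosl2 was at 134, 223 and 160 CPM with vehicle and 117, 169 and 181 CPM with PCN (log2 fold change -0.22, SE 0.28). Egr1 was at 12.8, 16.5 and 12.3 CPM with vehicle and 9.49, 8.21 and 21.2 CPM with PCN (-0.16, SE 0.39). PCN 27 stood above the other libraries for Egr1, and its group straddled the Vehicle group. Ier2 was at 12.6, 11.5 and 9.70 CPM with vehicle and 10.03, 11.3 and 12.8 CPM with PCN (-0.05, SE 0.20). Ier3 was at 3.27, 8.03 and 4.74 CPM with vehicle and 3.92, 7.93 and 8.70 CPM with PCN (0.29, SE 0.46). Without HFD Vehicle 50 the Ier3 difference was 0.72, and without HFD Vehicle 23 it was 0.025. Fosb was at 0.613, 0.721 and 0.863 CPM with vehicle and 0.423, 0.726 and 1.85 CPM with PCN (0.36, SE 0.59). With all libraries in, each of these differences was smaller than its standard error.

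Both injected groups were also set against the uninjected HFD mice, across the 2 deposited tables, which list raw counts made with the same tools per the submitters' notes. These comparisons share libraries: both use the HFD libraries of the diet comparison, and each uses 1 of the injected groups, so their values are given side by side and are not independent. Injection and table cannot be told apart in them. In HFD Vehicle against HFD, 0 of the 10 members and 0% of 16781 genes passed edgeR's test. An unadjusted p under 0.05 was found for 3 members and for 1639 genes (9.77%), and DESeq2 called 91 genes (0.328%) and limma-voom 0, with no member among them.

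In that comparison the libraries of 5 members did not overlap, against 28% of all genes. The Vehicle libraries lay above the HFD libraries for Egr1 (log2 fold change 0.74, SE 0.22), Fosl2 (0.68, SE 0.26), Ier3 (1.05, SE 0.40) and Ier2 (0.38, SE 0.17), each with an edgeR adjusted p of 0.485. For Egr2 they lay below (-1.06, SE 0.55; edgeR adjusted p = 0.491). None of these differences passed the adjusted test. Without HFD Vehicle 50 they were 0.56 for Egr1, 0.40 for Fosl2, 0.58 for Ier3, 0.33 for Ier2 and -0.63 for Egr2. The libraries of the other 5 members overlapped: Jun (0.92, SE 0.47), Fos (-0.47, SE 0.61), Junb (-0.24, SE 0.30), Egr3 (0.39, SE 0.35) and Fosb (0.49, SE 0.53). Without HFD Vehicle 50, Jun was at 0.30, Fos at 0.0024 and Junb at -0.010. Summed cell markers moved in the same contrast. The Vehicle libraries lay below all HFD libraries for macrophage markers (750 to 5909 against 6563 to 7191 CPM) and mast cell markers (22.8 to 137 against 224 to 305 CPM). They also lay below for fibroblast and progenitor markers (1179 to 2148 against 2188 to 2630 CPM). They lay above for endothelial markers (376 to 942 against 337 to 341 CPM) and for the intestinal list (13.3 to 40.8 against 9.52 to 9.91 CPM). The macrophage list did not move as 1: Mrc1 was at 770, 162 and 840 CPM in Vehicle 23, 50 and 55 and at 643 to 710 CPM in HFD. The part of cell markers in these differences was not tested. Without HFD Vehicle 50, edgeR called 172 genes (0.993%) and no member, and DESeq2 called 708 genes (2.57%), among them Egr2 (-0.63, DESeq2 adjusted p = 0.0016).

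In HFD PCN against HFD, edgeR called 732 of 16927 genes (4.32%) and 0 of the 10 members, although 3 members had an unadjusted p under 0.05, as did 29.5% of all genes. Those 3 were Egr2 (log2 fold change -0.92, SE 0.20, edgeR adjusted p = 0.0512), Ier3 (1.30, SE 0.32, edgeR adjusted p = 0.0613) and Junb (-0.38, SE 0.096, edgeR adjusted p = 0.0643). Their libraries did not overlap between the groups. Egr3 (0.63, SE 0.28) and Ier2 (0.30, SE 0.13) did not overlap either, which makes 5 members against 37.4% of all genes. The others overlapped: Fosl2 (0.43, SE 0.19), Egr1 (0.55, SE 0.35), Fosb (0.84, SE 0.66), Jun (0.12, SE 0.16) and Fos (-0.20, SE 0.16).

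Egr2, Ier3 and Junb were close to the threshold, and other settings moved them across it. DESeq2, which called 2410 of 27656 genes (8.71%), called Egr2 (adjusted p = 0.00178), Ier3 (adjusted p = 0.00316) and Junb (adjusted p = 0.0236). Without HFD PCN 5, edgeR called 5167 of 16688 genes (31%), with Egr2 and Junb lower and Ier3, Ier2 and Fosl2 higher. Limma-voom called 508 genes (3%) and none of the members. In the PCN group the macrophage sum was 5946, 2593 and 5784 CPM, below the 6563 to 7191 CPM of HFD in every library. None of the 8 macrophage markers passed. Other sums also did not overlap. Mast cell markers were lower with PCN (44.2 to 73.4 against 224 to 305 CPM in HFD). Endothelial markers (419 to 690 against 337 to 341 CPM) and mesothelial markers (30.8 to 74.5 against 2.04 to 19.3 CPM) were higher. The part of these cell markers in the Egr2, Junb and Ier3 values was not tested.

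Jun varied widely within the Chow and Vehicle groups, and the libraries with the most Jun were also the highest for some heat shock genes, though not for all. Hspb1, a small heat shock protein gene, was at 557.5 CPM in Chow 17 and 639.8 CPM in HFD Vehicle 50, the same libraries that held the highest Jun levels of 234 and 281 CPM. The mitochondrial chaperone gene Hspd1 was at 740 CPM and 764.5 CPM in these libraries and at 83.7 to 315 CPM in the other 10. HFD Vehicle 55 came next for Jun, at 150.2 CPM. Hsph1, another chaperone gene, listed in the PCN table only, was at 1096 CPM there, against 3725 CPM in HFD Vehicle 50, 60.1 CPM in HFD Vehicle 23 and 110 to 188 CPM with PCN. Hspa8, the most abundant heat shock gene in both tables, had another order: it was highest in HFD Vehicle 55 (2537 CPM) and Chow 17 (2034 CPM), while HFD Vehicle 50 (1793 CPM) lay below HFD 38 (1915 CPM) and HFD PCN 27 (1823 CPM). Fos was not high in Chow 17 and HFD Vehicle 50: it was at 7.91 CPM and 12.8 CPM. Why these heat shock genes were high was not tested.

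**Figure D5:**
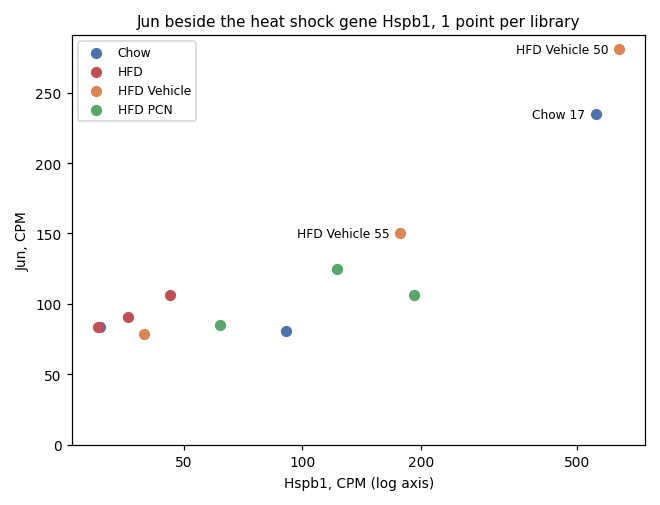
Jun in CPM (y axis, from 0) against Hspb1 in CPM (x axis, log scale), 1 point per library, coloured by group. Chow 17 and HFD Vehicle 50, at 557.5 and 639.8 CPM of Hspb1, hold the highest Jun levels, 234 and 281 CPM.

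Other genes of the same pathways were taken from lists drawn up by function. Their counts with diet are to be read against the 59.8% of all genes that passed (29.8% higher and 30% lower, median -0.03), and none is called particular to its list. Of 15 AP-1 relatives, 7 rose and 3 fell, with a median log2 fold change of 0.30. Atf3, a stress-induced factor that pairs with JUN proteins, was at 9.56 ± 6.28 CPM (SD, n = 3) in Chow and 329 ± 29.7 CPM (SD, n = 3) in HFD, and its log2 fold change was 4.89 (SE 0.43; edgeR adjusted p = 4.79e-05). Maff, a small MAF protein, fell by 0.78 on the log2 scale. Atf7, which fell by 1.17, shares 11.7% of its exon bases with a neighbouring gene and is uncertain. Like Fos and Egr2, Atf3 was low in HFD Vehicle 50, at 38.7 CPM where Vehicle 23 and Vehicle 55 had 211 and 424 CPM.

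Both NAB corepressors of EGR proteins rose with diet: Nab1 by 0.52 on the log2 scale (edgeR adjusted p = 0.00489) and Nab2 by 1.08 (edgeR adjusted p = 0.00362). Nab2 is uncertain, since the neighbouring genes Gm16229, Nemp1 and Stat6 together cover 42.2% of its exon bases. Of 39 other immediate early genes tested, 10 rose, 17 fell and 12 did not pass, with a median of -0.29, against 59.8% of all genes passing. The polo-like kinase gene Plk2 rose from 20.5 to 203 CPM (log2 fold change 3.06) and the stress gene Gadd45b from 5.32 to 27.7 CPM (2.14). Dusp5, an ERK phosphatase with 22.1% of its exon bases shared and so uncertain, rose by 2.89 on the log2 scale. The pseudokinase gene Trib1 fell from 41.2 to 14.7 CPM (-1.75). Id1 and Nr4a2 were the list's only genes past the test in HFD PCN against HFD, at log2 fold changes of 1.47 (edgeR adjusted p = 0.0237) and 1.24 (edgeR adjusted p = 0.041). No gene of any of these lists passed in HFD PCN against HFD Vehicle or in HFD Vehicle against HFD.

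Upstream regulators passed the diet test about as often as the 59.8% of all genes. Of 14 SRF, TCF and CREB regulators, 1 rose and 7 fell, with a median log2 fold change of -0.37: the SRF coactivator gene Mrtfa rose by 0.78 on the log2 scale, while Elk4 fell by 0.68 and the CREB coactivator genes Crtc2 and Crtc3 fell by 1.41 and 0.89. Of 18 MAP kinases and their kinases, 8 rose and 3 fell, with a median of 0.05. The ribosomal S6 kinase gene Rps6ka1 rose by 1.88 and the ERK kinase genes Map2k1 and Map2k2 by 0.98 and 0.75, while Mapk8, which encodes JNK1, a kinase of JUN, fell by 0.68. Of the 4 heat shock genes in the diet comparison, Hspb1 passed (-2.80, edgeR adjusted p = 0.0226), with overlapping libraries and its high value in Chow 17.

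Between the injected groups the genes with the smallest p of each list did not pass, with an edgeR adjusted p of 0.99986 for each. They were Batf3 (log2 fold change -0.55, SE 0.29), Wt1 (0.86, SE 0.48), Arc (-1.34, SE 0.40), Ep300 (-0.47, SE 0.29), Mapk9 (0.15, SE 0.15) and Hsph1 (-3.45, SE 1.26). Arc, a synaptic immediate early gene, was at 5.31, 12.4 and 12.5 CPM with vehicle and 5.15, 3.69 and 3.64 CPM with PCN, so its libraries did not overlap. In HFD Vehicle against HFD the corresponding genes were Atf7 (0.75, SE 0.24), Nab1 (-0.28, SE 0.16), Gadd45g (0.84, SE 0.17), Crtc2 (1.02, SE 0.34), Mapk7 (0.33, SE 0.14) and Hspb1 (3.01, SE 0.96), none of which passed. In HFD PCN against HFD, Atf3 (-0.99, SE 0.30), Wt1 (1.21, SE 0.30), Crtc2 (0.58, SE 0.15), Map2k1 (-0.34, SE 0.096) and Hspb1 (1.70, SE 0.38) did not pass either, with edgeR adjusted p from 0.0519 to 0.0882.

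Genes whose pattern was most like the mean of the 10 members were ranked by Pearson's r of log2 CPM over 12936 genes. Over the 12 libraries these were Tmppe (0.952), Pdia5 (0.948), Slc45a4 (0.938), Zfp36l2 (0.928) and Slc36a1 (0.926). Over the 9 libraries of mice on high-fat diet they were Smndc1 (0.938), Rbm15b (0.936), Atp2a2 (0.927), Ccdc134 (0.925) and Preb (0.913). The 2 sets of 5 shared no gene. The members did not share a common pattern. Over the 12 libraries Pearson's r was 0.96 between Junb and Egr2, but -0.77 between Egr2 and Ier3 and -0.62 between Fos and Jun. Likeness to their mean is therefore not likeness to each member. Libraries share groups, depth and composition, so these values only describe likeness and carry no test.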

How the data were processed

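The authors deposited 2 tables of raw read counts per gene, each with 6 libraries: HFD with Chow, and HFD PCN with HFD Vehicle. The build was GRCm38 (mm10) and the tools were HISAT2, HTSeq and DESeq2, per the submitters' processing notes, and versions, order and strand setting are not known here. The statistics columns of the tables were not used. Groups came from the sample labels. Plain CPM (counts scaled to a library's total) describe levels. Tests were edgeR 4.0.16 quasi-likelihood fits in R 4.3.3 on the counts of each comparison's 6 libraries, with the default expression filter, TMM scaling and Benjamini-Hochberg adjustment over all genes at 0.05. Comparisons across tables used the 28008 genes in both. The fits were tested on simulated data. Alternatives were DESeq2 1.42.0, voom in limma 3.58.1, other scalings, other filters, an adjusted p of 0.1, 1 fit of all 12 libraries, and leaving out each library in turn.

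The text names all 10 members, up to 4 genes of each list with diet and up to 2 elsewhere by smallest p among those that passed, the smallest p where none passed, and 5 genes most like the members over 12 and over 9 libraries, among genes averaging 1 CPM or more that are not predicted genes. Hspd1 and the genes set beside Jun were chosen after their values were seen, as were levels of Atf3 in single libraries. The members and lists were chosen with earlier results of these data known. Upstream sequences are from RefSeq on GRCm38.p6, without bases in annotated exons. A gene is marked as uncertain where other genes cover more than 10% of its exon bases. Promoters are not shown for members without an entry. A gene that the naming rule selects is not reported here.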

Additional observations from a re-analysis of the deposited data

How the results depend on the processing

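No paired analysis was possible because the groups share no library numbers. The 4 diet calls (Egr2, Fos, Junb, Ier3) held in direction and significance under every alternative run. Members lower with diet numbered 1, but 2 with no filter, and 1 to 2 when each library was left out; the added gene was Jun. In HFD PCN against HFD, members higher numbered 0, but 1 with no filter, with DESeq2 and at an adjusted p of 0.1, and 0 to 3 when each library was left out. Members lower there numbered 0, but 1 with no filter, 2 with DESeq2 and at an adjusted p of 0.1, and 0 to 2 when each library was left out. In HFD Vehicle against HFD, 1 member was lower with DESeq2 without HFD Vehicle 50, an alternative added after seeing the data, as was leaving out mitochondrially encoded genes. Some directions turned when 1 library was left out. With diet, Ier2 ran from -0.30 to 0.22 on the log2 scale. In HFD PCN against HFD Vehicle, Fos ran from -0.20 to 0.80, Fosb from -0.41 to 0.75, Fosl2 from -0.38 to 0.037, Junb from -0.37 to 0.26, Egr1 from -0.70 to 0.079, Egr2 from -0.29 to 0.57 and Ier2 from -0.16 to 0.036. With DESeq2 without HFD Vehicle 50, Fos was -0.20, Fosl2 0.034 and Egr2 -0.29. In HFD Vehicle against HFD, Fos ran from -0.99 to 0.0024, and in HFD PCN against HFD Jun ran from -0.017 to 0.28. Fosb with diet kept its direction but ran from -1.78 to -0.40. None of these passed the test; where a count moved, the cause was not tested. At 1 CPM in 3 libraries Fosb was not tested in any comparison, nor Egr3 with diet. Depth limits Fosb and Egr3, at 7 to 39 reads per library. With 3 libraries a group, outlying libraries could not be tested.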
